A study of Mus musculus with 7 samples.

Results

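The genes described here lie on both sides of Pou4f2, the gene that encodes the POU-domain transcription factor Brn3b, on mouse chromosome 8. They were taken by position and read depth, without use of any fold change. All genes of GRCm38 chromosome 8 whose start lies between 73.4 and 83.5 Mb were taken, Pou4f2 itself was left out, and only genes with at least 10 counts in 3 or more libraries were kept. Of 141 annotated genes in this window, 58 passed, out of 22168 genes that passed the same count rule in the whole data set. Gm10645 and Gm23468 were just inside that rule, with a third-highest count of 10 each, and Gm7997 and Gm17999 were just outside, with 9 each. The 58 flanking genes comprised 35 protein-coding genes, 11 processed pseudogenes and 12 other noncoding genes, with 21 at lower coordinates than Pou4f2 and 37 at higher coordinates.

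RNA was sequenced from the dorsal midbrain, one library per mouse, of 3 control and 4 *Brn3b* conditional knockout (cKO) mice. Controls were Brn3b flox/+ ::En1-Cre, which the sample labels call heterozygous, namely A2 (P4), A4 (P3) and A6 (P4). The cKO mice were Brn3b flox/- ::En1-Cre, labelled homozygous, namely B1 (P4), B7 (P2), B8 (P4) and B9 (P2), so mice aged P2 occurred only among the cKO. Every mouse in both groups carried 1 copy of En1-Cre, which is expressed in the midbrain and hindbrain, and 1 floxed allele that places an alkaline phosphatase reporter in the locus once Cre has acted. The groups therefore differed in their other chromosome 8, which carried a global null allele in the cKO and the wild-type allele in the controls. Animals of both sexes were used in the study.

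When a gene is inactivated by targeting in embryonic stem cells, the null allele is inherited together with the stretch of chromosome around it. Breeding to another strain replaces the linked DNA only as far as recombination has occurred, so that genes near a null allele can come from a different strain than their counterparts in controls. Regulatory elements lost or gained at the targeted site can also act on neighbouring promoters. The comparison asked whether the neighbours of the null allele differed in all 4 cKO libraries. The strain of origin and the breeding history of the null allele are not given in the sources used here, so neither of these routes was tested.

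Pou4f2 itself (chr8:78433010-78436645, minus strand, 2 exon blocks) was examined first as a check of the labels. It was at 46.5, 47.4 and 45.8 CPM in A2, A4 and A6 (CPM, the count of a gene relative to the library's TMM-scaled total), and at 9.65, 9.67, 10.6 and 11.6 CPM in B1, B7, B8 and B9. The groups did not overlap, and all 4 cKO libraries, including B8, were near 10 CPM. The mean fell from 46.6 ± 0.824 CPM (SD, n = 3) to 10.4 ± 0.920 CPM (SD, n = 4), a log2 fold change of -2.16 ± 0.132 (SE, edgeR quasi-likelihood test, adjusted p = 0.000566). Pou4f2 was the 1 gene of 21817 that this test called at an adjusted p under 0.05, which is 0.00458% of the genes tested.

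Libraries differed in ways that genotype alone does not order. The total count on genes ranged from 23588248 to 87572085 per library. B8 resembled the controls at most genes, whereas B1, B7 and B9 stood apart. Over all 22168 genes, B1 was above the 3 controls at 38.8% and below them at 37.8%, B7 at 39.9% and 39.2%, and B9 at 39.3% and 38.5%, against 17.0% and 21.4% for B8. The labelled tissue carried its markers, since 7 of 7 dorsal midbrain genes (among them En1, Otx2 and Pax7) were above 1 CPM and their summed level was 439 to 520 CPM in controls and 411 to 521 CPM in cKO. Telencephalic markers summed to 52.1 to 64.1 CPM and 44.3 to 60.3 CPM, and cerebellar markers to at most 1.55 CPM in any library. Because these are bulk samples, fewer cells of a type and less RNA per cell cannot be told apart.

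No flanking gene passed an adjusted p of 0.05 in edgeR. At an unadjusted p under 0.05 there were 9 of the 53 flanking genes tested (17.0%), compared with 30.4% of all genes tested. Of these 9, 7 were higher in the cKO (Nr3c2, Ednra, Otud4, Hhip, Gm5909, Gab1 and Rnf150), where 16.7% of all genes were higher at this threshold, and 2 were lower (Rasd2 and Gm2225), where 13.7% of all genes were lower. DESeq2, the tool the study used, called 3 of the 45 flanking genes with an adjusted p, or 6.67%, against 10.4% of all genes. Nr3c2 and Otud4 were higher (7.41% of all genes were called higher) and Gm2225 was lower (3.04% of all genes).

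The direct count asked for no threshold. All 4 cKO libraries lay above all 3 controls at 1 flanking gene, Nr3c2, and below them at 4, namely Gm2225, Anapc10, Gm18212 and Gm45407. Over all genes, 6.17% were separated upwards and 7.90% downwards, 14.1% in either direction, compared with 1.72% upwards and 6.90% downwards among the flanking genes. This order depended on the libraries used. Without A4 the flanking genes were at 12.1% in each direction, against 8.42% and 9.88% of all genes, with P4 mice only they were at 19% and 20.7%, against 13.2% and 12.9%, and without B8 at 29.3% and 17.2%, against 28.0% and 27.6%. Upwards, the flanking genes stayed below all genes without A2 (12.1%, against 13.7%) and without A6 (5.17%, against 10.7%). They also did so without B1, B7 or B9, at 5.17% each, against 7.95%, 7.56% and 7.88%. Downwards, they were above all genes without B1 (10.3%, against 8.07%) and below them without A2, A6, B7 or B9. With fewer libraries to separate, the count of separated genes tends to rise. Leaving out any 1 mouse raised the upward count from 1 to between 3 and 17, or 5.17% to 29.3%. Over all genes the share rose to between 7.56% and 28.0%. Among protein-coding genes the separated share was 2 of 35 neighbours (5.71%) and 13.8% of all. An exact permutation test of 3 against 4 mice cannot give a two-sided p below 0.0571, the value obtained at each separated gene.

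**Figure D1:**
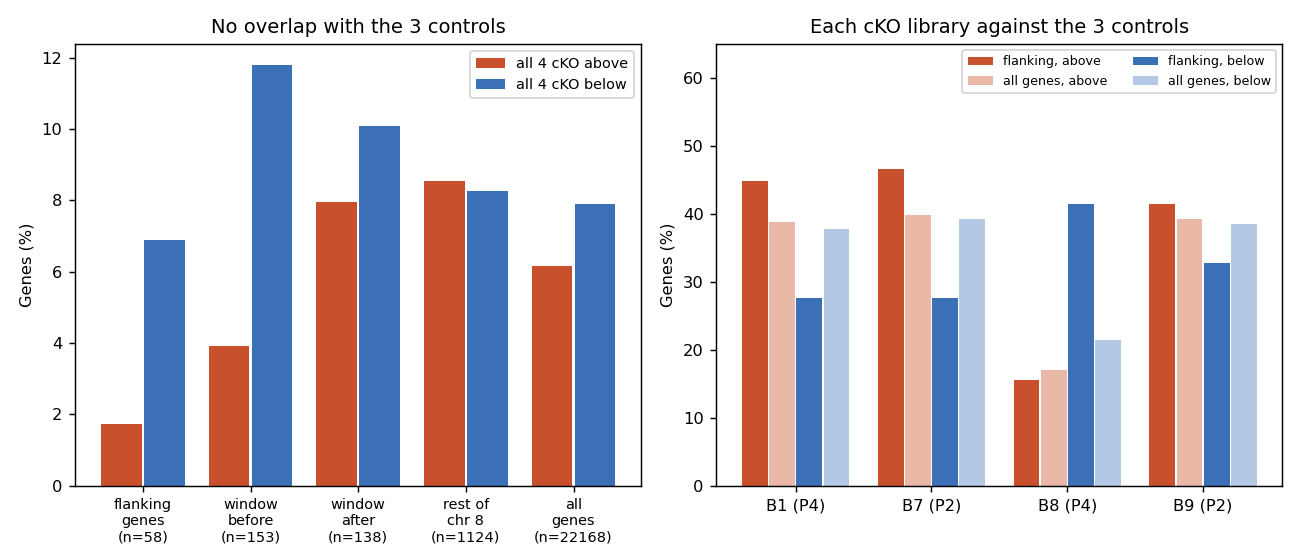
Left, share of genes (%) whose 4 cKO libraries all lay above (orange) or below (blue) all 3 controls, for the 58 genes flanking Pou4f2, the windows of equal length before and after them, the rest of chromosome 8 and all genes. Right, for each cKO library, the share of flanking genes and of all genes above or below the 3 controls. The flanking genes had the smallest bar for separation upwards (1.72%), which became 12.1% without A4 (8.42% of all genes) or without A2 (13.7% of all genes). B8 was below the controls at 41.4% of the flanking genes.

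The neighbouring stretches of the chromosome were compared in the same way. In the window of equal length at lower coordinates (63.3 to 73.4 Mb), 6 of 153 genes were separated upwards and 18 downwards, or 15.7% in all. In the window at higher coordinates (83.5 to 93.6 Mb), 11 of 138 were separated upwards and 14 downwards, or 18.1%. On the remainder of chromosome 8, both windows included, it was 16.8% of 1124 genes, compared with 8.62% of the genes around Pou4f2. The median log2 fold change was 0.13 over the flanking genes, -0.21 and -0.18 in the lower and upper windows, and 0.00 over all genes. Base composition moved with this difference, as the median GC content was 45.9% in the flanking genes, 54.2% and 52.1% in the windows and 48.8% in all genes. With a trend on GC content and exon length removed per library, the medians were 0.03, -0.13, -0.13 and -0.04.

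The values did not rise or fall steadily with distance from Pou4f2, and were highest in the middle of 3 distance bands. The median log2 fold change was 0.13 for the 16 tested genes within 1 Mb (quartiles -0.08 and 0.32), 0.36 for the 14 at 1 to 2.5 Mb (-0.03 and 0.60) and -0.01 for the 23 farther away (-0.31 and 0.32). With the trend on GC content and exon length removed, these medians were -0.04, 0.15 and 0.03. At an unadjusted p under 0.05 in edgeR there were 2 of 16, 5 of 14 and 2 of 23 genes (12.5%, 35.7% and 8.70%), against 30.4% of all genes. The 3 genes called by DESeq2 were among the 26 with an adjusted p within 2.5 Mb, and none were among the 19 farther away (10.4% of all genes were called). The difference between bands was not tested. The median log2 fold change was 0.09 on the lower side and 0.17 on the upper side. All 4 cKO libraries were separated at 1 of 19, 3 of 15 and 1 of 24 genes in the 3 distance bands, against 14.1% of all genes, and nothing was read from counts this small. The 3 in the middle band were Nr3c2, Gm45407 and Anapc10.

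**Figure D2:**
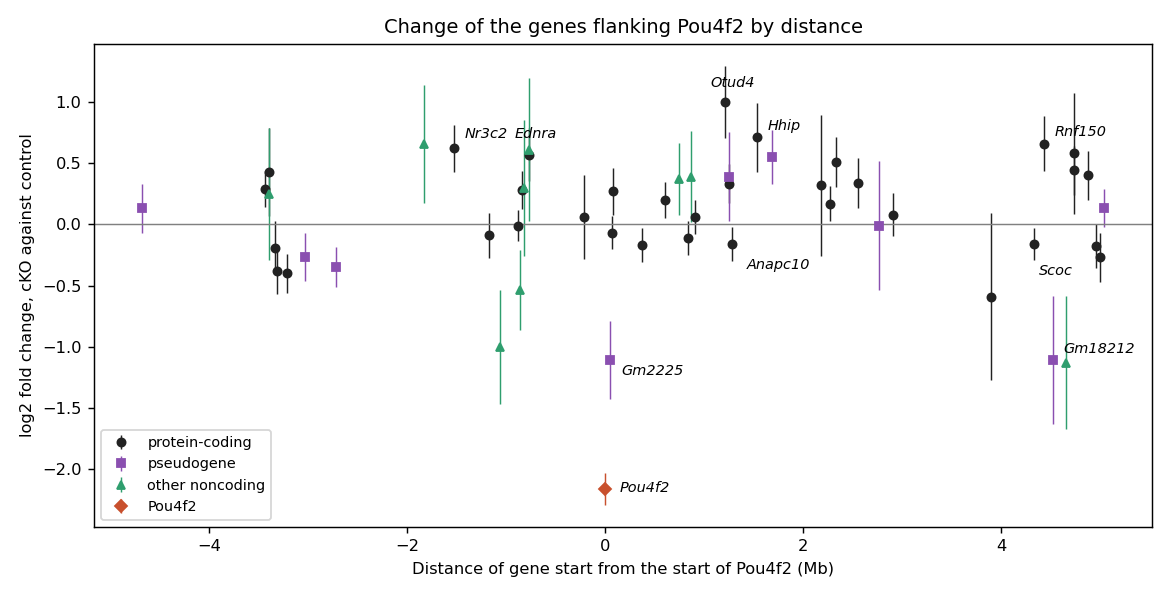
Log2 fold change (cKO against control, edgeR; bars are SE) of the tested flanking genes against the distance of its start from that of Pou4f2 in Mb, by gene type. Pou4f2 is at -2.16, and the neighbours lie above and below 0 in each distance band, mostly above it at 1 to 2.5 Mb (10 of 14), with Otud4 at 1.00 and Gm2225 at -1.11.

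The gene whose start is nearest to that of Pou4f2 was a pseudogene. Gm2225 (chr8:78486034-78486410, minus strand, 1 exon block) is a processed pseudogene that starts 49.4 kb beyond the end of Pou4f2. It was at 8.01, 10.1 and 9.09 CPM in the controls and 3.99, 2.89, 7.12 and 2.96 CPM in B1, B7, B8 and B9, so that every cKO library was below every control and B8 was the closest. Its mean was 9.08 ± 1.07 CPM (SD, n = 3) and 4.24 ± 1.98 CPM (SD, n = 4), a log2 fold change of -1.11 ± 0.317 (SE, edgeR adjusted p = 0.138). With DESeq2 the adjusted p was 0.0253, and over the alternatives it ranged from 8.61e-11 to 0.989.

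Gm2225 is a near copy of the transcript of Rps25, which encodes a protein of the small ribosomal subunit and lies on chromosome 9. All 377 bases of the pseudogene aligned to the Rps25 transcript without a gap at 98.7% identity, with 5 mismatches. The longest stretch without a mismatch spanned 206 bases (positions 6 to 211), more than the 100 bases of a read, so that a read within it cannot be assigned to one of the loci by its own sequence. Reads were paired, and a mate that reached a mismatch outside this stretch could differ between the loci. How many pairs did so was not tested. The last 177 bases (positions 201 to 377) are shown for both because 4 of the 5 mismatches lie there. Capitals mark the bases that differ, and the sequences are those of the GENCODE transcripts on GRCm38.
Gm2225: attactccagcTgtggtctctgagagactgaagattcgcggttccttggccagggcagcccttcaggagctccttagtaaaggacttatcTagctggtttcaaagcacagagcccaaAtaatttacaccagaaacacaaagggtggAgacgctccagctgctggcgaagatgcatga
Rps25: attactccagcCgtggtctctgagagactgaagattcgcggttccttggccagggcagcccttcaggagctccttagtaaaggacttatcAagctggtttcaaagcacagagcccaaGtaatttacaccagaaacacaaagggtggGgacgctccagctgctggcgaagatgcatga

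Rps25 had the same pattern as its copy. It was at 59.0, 75.6 and 62.0 CPM in A2, A4 and A6 and at 35.6, 25.7, 58.0 and 32.3 CPM in B1, B7, B8 and B9, again with every cKO library below every control and B8 the closest. Its log2 fold change was -0.79 ± 0.251 (SE, edgeR adjusted p = 0.138). The count of Gm2225 was 13.4% to 14.7% of that of Rps25 in the 3 controls, and 11.2%, 11.2%, 12.3% and 9.16% in B1, B7, B8 and B9. Whether the value of Gm2225 reflects its own transcription or reads of Rps25 cannot be told apart in these counts, so it is uncertain as a change at the locus.

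Of the 11 pseudogenes, 9 matched a protein-coding transcript at 90% identity or more, and 5 of these 9 had a log2 fold change of the same sign as the matching gene. Gm7901 and its source Phgdh, an enzyme of serine synthesis, were at -0.35 and -0.77, and Gm7984 and Naa20 at -0.27 and -0.20. Gm5909, at 0.55, did not follow Zc3h15, at -0.08. Gm18212 resembles Zfp108 at 90.8% identity and lies inside the span of Rnf150 without touching its exons (chr8:82952512-82953400). It was at 1.53, 2.02 and 1.72 CPM in the controls and 1.14, 0.341, 1.5 and 0.388 CPM in the cKO, separated but with B8 just under A2, and its log2 fold change was -1.11 ± 0.521 (SE) against 0.54 for Zfp108. Gm2253 and Gm9520, with weaker matches, were below 0.5 CPM in every library and were not tested by edgeR.

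The protein-coding neighbour with the clearest separation was Nr3c2 (chr8:76899442-77245012, plus strand), which encodes the mineralocorticoid receptor, a nuclear receptor for aldosterone and glucocorticoids. It starts 1.53 Mb below Pou4f2. It was at 7.18, 6.79 and 8.40 CPM in the controls and at 13.2, 11.1, 8.89 and 12.8 CPM in B1, B7, B8 and B9. All cKO libraries were above all controls, but B8 exceeded A6 by little. The mean was 1.54-fold that of the controls, 11.5 ± 1.96 CPM (SD, n = 4) against 7.46 ± 0.838 CPM (SD, n = 3), a log2 fold change of 0.62 ± 0.193 (SE, edgeR adjusted p = 0.138). DESeq2 gave an adjusted p of 0.0419, with a range of 0.000178 to 0.989 over the alternatives, and the log2 fold change was 0.34 with the trend on GC content and exon length removed. Exons of Nr3c2 overlap those of Gm10649 on the other strand, which was at 0.325 to 1.42 CPM, and the strand option of the read counting is not given in the sources used here.

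On the lower side, the other nearest protein-coding genes gave no separated values. Ttc29, whose end lies 38.7 kb from Pou4f2 and which encodes a ciliary dynein-associated protein, was at 1.24, 1.07 and 0.694 CPM in the controls and 0.926, 1.15, 0.764 and 1.30 CPM in the cKO. Ednra, the endothelin A receptor of vascular smooth muscle and neural crest derivatives, was at 5.68, 6.7 and 5 CPM and at 7.91, 10.8, 6.5 and 9.26 CPM, so that B1, B7 and B9 were above the controls and B8 was within their range. Meningeal markers, beside it, summed to 133 to 285 CPM in controls and 144 to 296 CPM in cKO, and endothelial markers to 108 to 173 CPM and 95.6 to 150 CPM. Tmem184c, a membrane protein, was at 56.0, 48.0 and 51.9 CPM against 66.5, 75.5, 50.7 and 59.9 CPM, with the same 3 libraries high. Prmt9, an arginine methyltransferase of splicing factors, had a log2 fold change of -0.01 ± 0.128 (SE), and Arhgap10 one of -0.09 ± 0.186 (SE).

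On the upper side, the groups overlapped at each of the 6 protein-coding genes closest to Pou4f2. Rbmxl1, a retrogene of the RNA-binding protein Rbmx at 68.6 kb, was at 30.5, 32.9 and 29.3 CPM in the controls and 25.8, 30.0, 29.0 and 32.7 CPM in the cKO, with overlapping groups and a log2 fold change of -0.07 ± 0.134 (SE). Slc10a7, a membrane carrier needed for skeletal development, starts 448 bases from Rbmxl1 in the opposite direction and had a log2 fold change of 0.27 ± 0.194 (SE). Lsm6, a subunit of the Lsm ring of mRNA decay and splicing, was at 52.5, 55.3 and 48.1 CPM and at 42.6, 42.9, 55.4 and 43.4 CPM. Here B1, B7 and B9 were below the controls and B8 was at the top of all libraries. Zfp827, a zinc finger protein, was at 0.20 ± 0.149, Mmaa, a protein of cobalamin metabolism, at -0.11 ± 0.139 and Smad1, which transmits bone morphogenetic protein signals, at 0.06 ± 0.137 (log2 fold change ± SE). On all 7 libraries, none of these 6 had an edgeR adjusted p below 0.347. Without B8, where edgeR called 46.7% of all genes, Lsm6 was called lower (log2 fold change -0.28, adjusted p = 0.0476). Against the P2 cKO mice alone, where 46.9% were called, Lsm6 was at -0.29 and Zfp827 at 0.35 (edgeR adjusted p = 0.0426 and 0.0121).

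Otud4 (chr8:79639618-79677724, plus strand), a deubiquitinase, had the largest positive log2 fold change of the protein-coding neighbours. It was at 45.1, 34.6 and 38.7 CPM in the controls and at 83.6, 97.0 and 97.9 CPM in B1, B7 and B9, but at 38.3 CPM in B8, between A4 and A6. Its mean of 79.2 ± 28.0 CPM (SD, n = 4) was 2.01-fold the 39.5 ± 5.30 CPM (SD, n = 3) of the controls, and 2.35-fold without B8. The log2 fold change was 1.00 ± 0.294 (SE, edgeR adjusted p = 0.138), and the DESeq2 adjusted p was 0.0268 (1.12e-16 to 0.989 over the alternatives). With the GC and length trend removed the log2 fold change was 0.54, no longer the largest. Gm10645 and Tom1, at most 0.326 and 1.07 CPM in any library, were then at 1.18 and 0.78. The groups overlapped through B8, in which Pou4f2 was as low as in the other cKO mice.

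The same arrangement of libraries was found at many neighbours. B1, B7 and B9 were all above the 3 controls at 17 flanking genes (29.3%, against 28.1% of all genes), of which 15 were protein-coding, and all below them at 10 (17.2%, against 27.5%). At the 15 protein-coding genes, B8 was within the range of the controls at 8, below it at 6 and above it at 1, Nr3c2. Hhip, which binds and restrains hedgehog ligands, was at 18.5, 18.7 and 19.9 CPM in the controls, at 39.5, 34.5 and 35 CPM in B1, B7 and B9 and at 15.3 CPM in B8, below every control. Rnf150, a RING finger protein, was at 30.5, 23.6 and 26.4 CPM against 42.8, 53.9 and 46.2 CPM, with B8 at 26.7 CPM. Gab1, a docking protein of receptor tyrosine kinases, was at 20.5, 23.1 and 18.2 CPM against 26.6, 34.9 and 34.7 CPM, with B8 at 20.9 CPM. Removal of the GC and length trend took the log2 fold change from 0.71 to 0.18 for Hhip, from 0.66 to 0.06 for Rnf150 and from 0.51 to 0.46 for Gab1. These 3 genes were chosen after their values were seen.

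**Figure D3:**
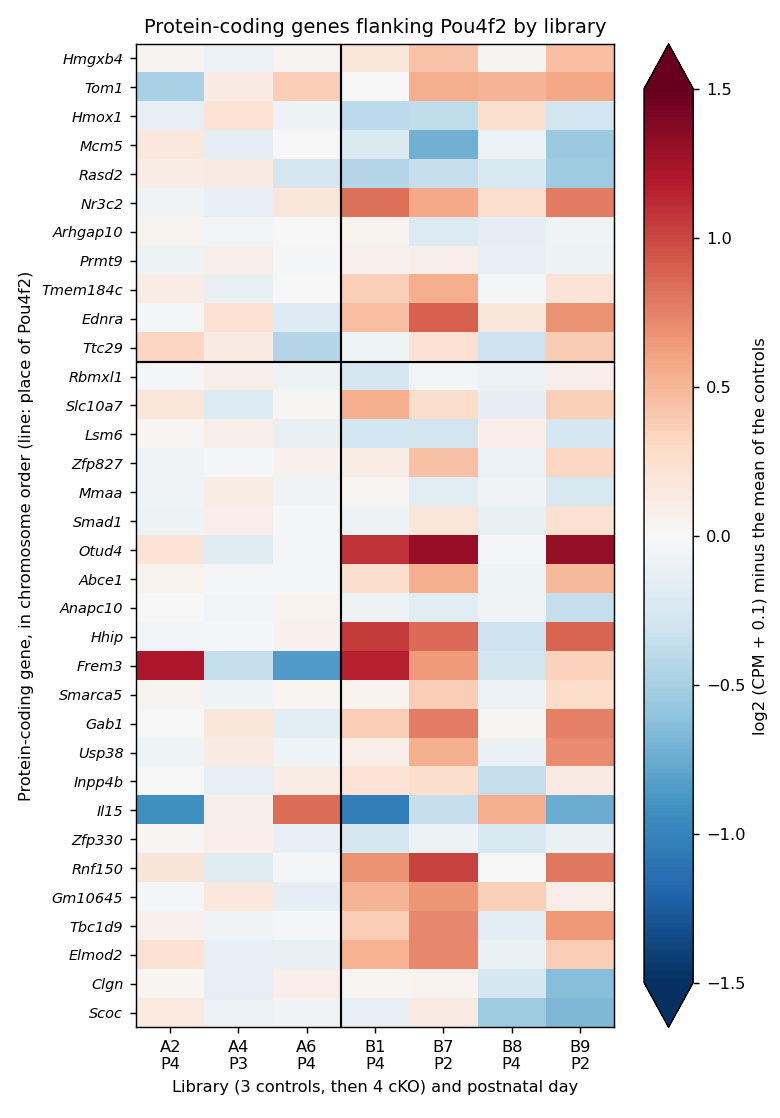
Level of the protein-coding flanking genes in each library, as log2 (CPM + 0.1) minus the mean of the 3 controls, in chromosome order; the horizontal line marks the place of Pou4f2 and the vertical line separates controls from cKO. Otud4, Hhip and Rnf150 are high in B1, B7 and B9 and near or below 0 in B8, and Scoc and Clgn are low in B8 and B9.

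Without B8, far more genes were called, among the neighbours as over all genes. edgeR then called 20 of 50 flanking genes (40.0%), against 46.7% of all genes. Of these, 13 were higher (26.0%, against 23.7% of all genes) and 7 were lower (14.0%, against 23.1%). DESeq2 without B8 called 20 of 58 (34.5%, against 39.9% of all), and limma-voom with sample quality weights, in which no library was left out, called 18 of 53 (34.0%, against 48.5%). The controls against the P2 cKO mice alone gave 22 calls, where 46.9% of all genes were called. Postnatal day and genotype cannot be told apart in that last comparison.

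B8 was low at more of the neighbours than elsewhere. It was below all 3 controls at 24 of the 58 flanking genes (41.4%) and above them at 9 (15.5%), while over all genes the shares were 21.4% and 17.0%. The shortfall against the lowest control had a median of 7.14% over the 24 genes, and was at most 60.4% over all 24 and at most 26.4% among the 15 of them with at least 10 CPM. The median difference of B8 from the control mean was -0.09 over the neighbours and -0.01 over all genes (log2 scale). With the trend on GC content and exon length removed, it was again 24 genes, against 26.1% of all genes. This is 1 library, the pattern was noticed after the values were seen, and it was not tested.

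**Figure D4:**
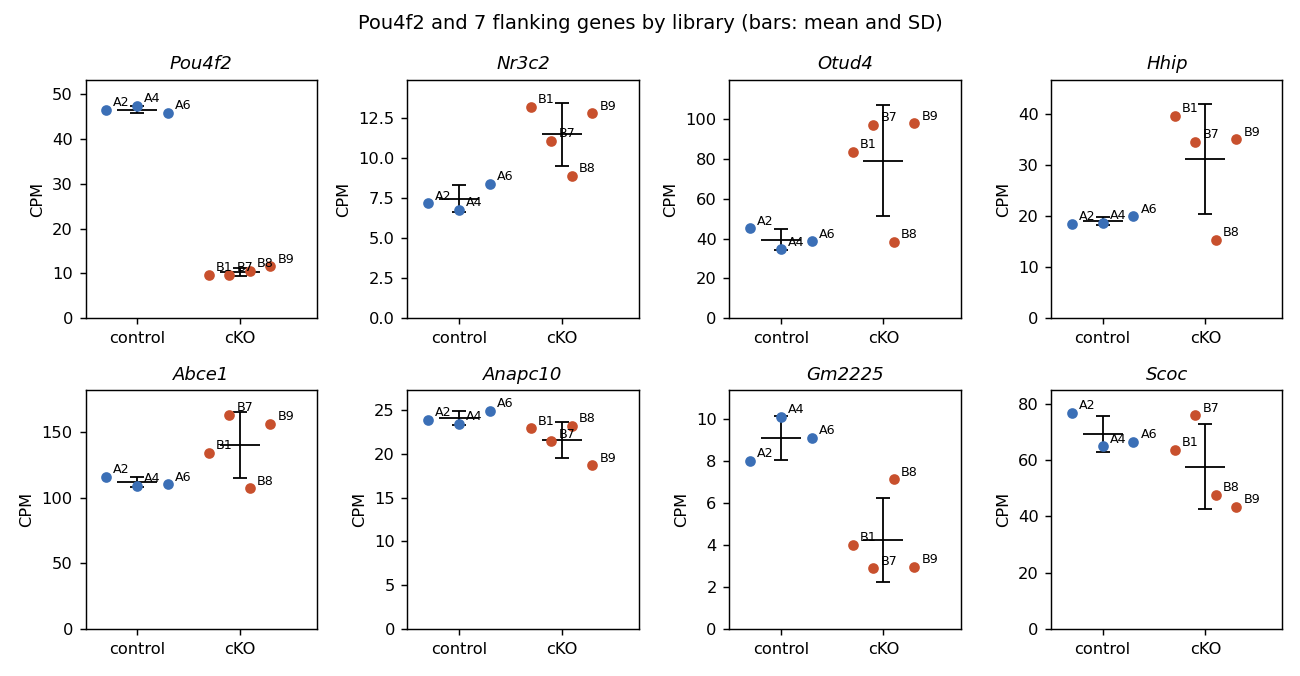
CPM of Pou4f2 and 7 flanking genes in each library (points, named), with the mean and SD of the 3 controls (blue) and 4 cKO (orange); each axis starts at 0. Pou4f2 is near 10 CPM in all 4 cKO libraries, while B8 lies within the range of the controls for Otud4, just below them for Abce1 and below them for Hhip.

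Abce1 and Anapc10 start 80 bases apart, and neither log2 fold change passed the edgeR test on all 7 libraries. Abce1, an ATPase that splits ribosomes after termination, is on the minus strand and starts at position 79711740, and Anapc10, a subunit of the anaphase-promoting complex, is on the plus strand and starts at position 79711820. Abce1 was at 116, 109 and 110.0 CPM in the controls and 134, 163, 107 and 156 CPM in B1, B7, B8 and B9, so that B8 was the lowest of all libraries and the other cKO libraries were the highest. Anapc10 was at 23.9, 23.4 and 24.9 CPM in the controls and 22.9, 21.4, 23.2 and 18.7 CPM in the cKO. All 4 were below the controls, with B8 just under A4. The log2 fold changes were 0.33 ± 0.159 and -0.16 ± 0.137 (SE, edgeR adjusted p = 0.184 and 0.428), and with the GC and length trend removed they were -0.01 and -0.40, no longer of opposite sign. Without B8, Abce1 was called higher (log2 fold change 0.44, edgeR adjusted p = 0.00537) and Anapc10 was not called (-0.20, adjusted p = 0.222).

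The 79 bases between both starts (chr8:79711741-79711819, GRCm38.p6, RefSeq, strand of Abce1) are shown because the annotated genes of the pair begin at their ends. Capitals mark a cAMP response element (TGACGTCA, the same on both strands).
Abce1-Anapc10: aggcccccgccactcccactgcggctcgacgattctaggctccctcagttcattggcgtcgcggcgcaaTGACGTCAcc

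Among the 31 neighbours with a RefSeq promoter window (250 bases before to 50 after the start), 5 held this element, namely Abce1, Anapc10, Hhip, Mcm5 and Prmt9, against 2.03% of 27025 genes, and Abce1 and Anapc10 share 1 match. The neighbours had passed the count rule, whereas the 27025 genes, more than the 22168 that passed it, include genes that did not. The 2 shares are therefore not of like sets. The core of the binding sequence of POU4 factors (TAATTAAT or ATTAATTA) was in none of the 31 windows and in 0.992% of all. A match is a run of letters and says nothing of binding.

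The other 4 pairs of neighbours start within 1000 bases of each other in opposite directions. Tmem184c and 4933431K23Rik were at 0.28 and 0.30, Rbmxl1 and Slc10a7 at -0.07 and 0.27, Mmaa and Gm4890 at -0.11 and 0.39, and Gm10645 and Tbc1d9 at 0.58 and 0.44 (log2 fold changes). Exons of Gm10645 and Tbc1d9 overlap, and the strand option of the read counting is not given. Gm10645 was at 0.146 to 0.326 CPM, beside 112 to 207 CPM for Tbc1d9. No noncoding partner was above 2.17 CPM in any library.

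By function, the 35 protein-coding neighbours gave these values. Of the 9 genes of receptors and signalling, 4 were higher (Nr3c2, Ednra, Hhip and Gab1) and 1 lower (Rasd2) at an unadjusted p under 0.05, where 16.7% of all genes were higher and 13.7% lower, and the median log2 fold change was 0.08. Rasd2, a small GTPase known from the striatum, was at 20, 20.2 and 15.5 CPM and at 13.6, 14.5, 15.7 and 12.7 CPM, with only B8 inside the control range. Inpp4b, a phosphoinositide phosphatase, was at 0.08 ± 0.176 (log2 fold change ± SE). Il15, a cytokine, was below 1 CPM in every library.

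Of the 4 genes of ubiquitin transfer or removal, Otud4 and Rnf150 were higher at an unadjusted p under 0.05 (16.7% of all genes), Usp38 was at 0.34 ± 0.203 and Anapc10 at -0.16 (log2 fold change). The 5 genes of chromatin, replication and zinc finger proteins had none at this threshold. Mcm5, a subunit of the replicative helicase, was at 18.6, 15.1 and 16.6 CPM and at 14.4, 10.1, 15.7 and 11.3 CPM, with the P2 mice lowest. Markers of dividing cells summed to 51.5 to 71.3 CPM in controls and 55.6 to 92.2 CPM in cKO, and their part was not tested. Smarca5, the ATPase of ISWI remodelling complexes, was at 0.17 ± 0.147, Hmgxb4 at 0.29 ± 0.145 and Zfp330 at -0.16 ± 0.129 (log2 fold change ± SE).

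The 4 genes of RNA metabolism and translation (Abce1, Lsm6, Prmt9 and Rbmxl1) had a median log2 fold change of -0.04, and none passed an unadjusted p of 0.05. Among the 9 genes of membranes, traffic and metabolism none did either, with values from -0.27 to 0.44. Tbc1d9, a Rab GTPase-activating protein, had the highest level per length of the protein-coding neighbours, 25.5 CPM per kb of exon, followed by Tmem184c (21.4), Abce1 (21.3), Rbmxl1 (17.7) and Scoc (14.7). It was at 131, 121 and 124 CPM in the controls and at 162, 207, 112 and 196 CPM in B1, B7, B8 and B9, again with B8 below the controls. Hmox1, the inducible haem oxygenase, was at 6.97, 8.77 and 7.23 CPM and at 5.77, 5.82, 8.99 and 6.22 CPM, with B8 the highest. The 5 red blood cell markers, beside it, summed to 156, 496 and 132 CPM in the controls and to 177, 61.6, 179 and 57.7 CPM in B1, B7, B8 and B9, lowest in B7 and B9. Their part in the values of Hmox1 was not tested. Elmod2 was at 0.40 ± 0.200 and Tom1, whose exons overlap the antisense gene Gm45822, at 0.43 ± 0.360 (log2 fold change ± SE).

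Frem3 and Gm10645 were scarce. Frem3 was at 0.32 ± 0.576 and Gm10645 at 0.58 ± 0.493 (log2 fold change ± SE).

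The 12 other noncoding genes were at low levels, at most 2.17 CPM in any library (Gm4890 in B7). Of the 9 tested, none passed an unadjusted p of 0.05, and the median log2 fold change was 0.30. Gm45407, inside the span of Arhgap10, was separated downwards at 0.290, 0.300 and 0.475 CPM against 0.142, 0.186, 0.222 and 0.153 CPM, levels that correspond to few reads (log2 fold change -1.0 ± 0.467, SE). The lncRNA Gm45601 was at 0.249, 0.05 and 0 CPM in the controls and at 0.392, 0.900, 0.197 and 0.223 CPM in the cKO. Its groups overlapped, and it was not tested by edgeR. DESeq2 on all libraries gave it an unadjusted p of 0.0235 and no adjusted p, and without B8 it was the 1 call among these 12 genes (DESeq2 adjusted p = 0.0358).

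Scoc and Clgn, side by side at the upper end of the window, had a different arrangement. Scoc (chr8:83430084-83458391, minus strand), a small coiled-coil protein of autophagy, was at 76.8, 64.9 and 66.5 CPM in the controls, at 63.7 and 76.0 CPM in B1 and B7, and at 47.7 and 43.4 CPM in B8 and B9. Clgn, an endoplasmic reticulum chaperone known from the testis, was at 40.2, 36.2 and 42.1 CPM, then 40.1 and 40.8 CPM, and 33.0 and 25.3 CPM in B8 and B9. B8 and B9 differ in age, P4 and P2. Over all genes, both B8 and B9 were at least 20% below the lowest of the other 5 libraries at 38 genes (0.171%), and among the 10925 genes with at least 10 CPM at 1 (0.00915%), which was Scoc. The arrangement was noticed after the values were seen, and this rule describes it. That Scoc meets the rule therefore says nothing of how unusual Scoc is. Clgn did not meet it, with B8 at 33.0 CPM and A4 at 36.2 CPM. The arrangement was not tested. Between the groups, the log2 fold changes were -0.27 ± 0.199 for Scoc and -0.18 ± 0.180 for Clgn (SE, edgeR adjusted p = 0.366 and 0.496), and -0.54 and -0.33 with the GC and length trend removed.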

How the data were processed

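Dorsal midbrains of 3 control and 4 cKO mice were profiled by strand-specific, polyA-selected, paired-end RNA-seq. After trimming, the authors used TopHat2 and Bowtie2 for alignment (GRCm38.p5) and HTSeq for counting per gene (GENCODE vM15); strand and overlap options are not given in the sources used here. The deposited values are raw counts per gene for 52636 genes in each library. Entries that name no gene (30.98% to 38.18% of counted read pairs) were left out. Replicate libraries differed by more than sampling noise (chi-square per degree of freedom 7.72 to 218) and were each counted as 1 sample. Positions, gene types and exon lengths came from GENCODE vM21 on GRCm38, joined by Ensembl identifier (52403 matched).

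Counts were compared in R 4.3.3 with edgeR 4.0.16 across all genes (filterByExpr with a minimum count of 10 and total of 15, TMM, glmQLFit, glmQLFTest, Benjamini-Hochberg, 21817 genes), so edgeR adjusted p-values are over all genes tested. CPM uses TMM library sizes. A standard error was obtained from the log2 fold change and the F statistic. DESeq2 1.42.0, limma 3.58.1 with voom and the other settings named in the closing section were alternatives. An adjusted p that DESeq2 left as NA stayed NA. The scripts were tested on simulated data. The flanking genes Gm23468, Gm2253, Gm45601, Gm45435 and Gm9520 did not pass filterByExpr. Pseudogenes were aligned to protein-coding transcripts with blastn.

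Genes were named by rule: Pou4f2, the 6 nearest protein-coding genes on each side, genes called by edgeR or DESeq2, genes of at least 1 CPM whose groups did not overlap (up to 8 protein-coding in each direction, up to 3 noncoding), and the 5 protein-coding genes with the highest CPM per kb. Others named were chosen after their values were seen. The genes, lists and tests were chosen with earlier results of these data known. The p-values rest on the spread between mice. Flanking genes not named are given by counts and ranges. One of them is not reported here and is left out of the figures, though counted in the totals.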

Additional observations from a re-analysis of the deposited data

Results flagged for a closer look

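Among 21 results examined over the 4 cKO libraries, 1 had a library far from the others: Lsm6 was at 55.4 CPM in B8, against 42.6, 42.9 and 43.4 CPM in B1, B7 and B9 and 48.1 to 55.3 CPM in the controls. The gap between B8 and the nearest of the other 3 was 0.937 of the whole range, above Dixon's 95% limit for 4 values. Such a gap arises by chance in about 1 of 20 groups.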

How the results depend on the processing

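The log2 fold change of Pou4f2 kept its direction under every alternative, from -2.21 to -2.12 when single mice were left out, and missed the threshold only with P4 mice alone, 2 against 2 (-2.18, edgeR adjusted p = 0.192). The number of flanking genes called was 0 in edgeR, 3 in DESeq2 (2 higher, 1 lower), 18 with limma-voom and sample quality weights (13 and 5), 22 for the controls against the P2 cKO mice (15 and 7) and 20 in DESeq2 without B8 (14 and 6, chosen after seeing the data). As shares higher and lower, DESeq2 gave 4.44% and 2.22%, against 7.41% and 3.04% of all genes under the count rule. With limma-voom these were 24.5% and 9.43%, against 24.3% and 24.4%. In DESeq2 without B8 they were 24.1% and 10.3%, against 22.9% and 21.5%. Against the P2 cKO mice, 46.9% of all genes tested were called in either direction. Leaving out 1 mouse at a time gave 0 to 20 calls (0 to 13 higher, 0 to 7 lower), with all of the calls arising without B8. In that fit edgeR called 23.7% of all genes higher and 23.1% lower. The cause was not tested. The 1 gene separated upwards became 2 (3.45%) with the GC content and exon length trend removed (4.99% of all genes). It was also 2 with library size only (6.48% of all genes) or a filter of 1 count in any library (6.93%). It became 3 (5.17%) with upper-quartile factors (7.2% of all genes) or a filter of 10 counts in every library (7.29%). It became 11 with P4 mice only, 5 for the controls against the P4 cKO mice and 19 against the P2 cKO mice, comparisons with fewer libraries to separate, where 13.2%, 10.1% and 32.5% of all genes were separated upwards against 19%, 8.62% and 32.8% of the flanking genes. The 4 genes separated downwards became 8 with the GC trend removed (13.8%, against 10.1% of all genes), 12, 7 and 15 in those 3 comparisons (20.7%, 12.1% and 25.9%, against 12.9%, 9.52% and 33.5%), and 1 among protein-coding genes only (2.86%, against 7.76% of all protein-coding genes). Leaving out single mice gave 3 to 17 genes upwards (17 without B8, 7 without A2 or A4, 3 without A6, B1, B7 or B9) and 4 to 10 downwards (10 without B8, 7 without A4). Without B8 these were 29.3% and 17.2% of the flanking genes, against 28.0% and 27.6% of all genes. Without A4 they were 12.1% each way, against 8.42% and 9.88%. Upwards, the share of the flanking genes was the smaller one without A2 (12.1%, against 13.7%) and without A6 (5.17%, against 10.7%). It was also smaller without B1, B7 or B9, at 5.17% each, against 7.95%, 7.56% and 7.88% of all genes. Downwards, it was the larger one without B1 (10.3%, against 8.07%) and the smaller one without A2, A6, B7 or B9. The median log2 fold change of the flanking genes was 0.00 for the controls against the P4 cKO mice and 0.28 within 2.5 Mb of Pou4f2. Taking the transcription start as the gene's position gave the same counts.

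Among the 19 flanking genes that the naming rule selects, 319 values kept their direction and side of the threshold, 38 passed the threshold where edgeR on all libraries did not, and 23 changed sign, at values from -0.25 to 0.04. With the GC content and exon length trend removed, these were Abce1 (-0.01), Arhgap10 (0.04), Rbmxl1 (0.03), Slc10a7 (-0.16), Smad1 (-0.09) and Zfp827 (-0.14). With P4 mice only they were Mmaa (0.04), Prmt9 (0.02), Smad1 (-0.04) and Ttc29 (-0.20). Prmt9 was at 0.03 in DESeq2 without B8, 0.01 with the filter of 10 counts in every library, 0.04 with limma-voom and between -0.06 and 0.04 when single mice were left out. Ttc29 was at -0.25 for the controls against the P4 cKO mice, -0.14 with postnatal day as a covariate and between -0.15 and 0.22 when single mice were left out. Smad1 was at -0.09 and -0.04 under those first 2 settings, and Rbmxl1 was at 0.00 against the P2 cKO mice. No paired analysis was possible because the labels give the mice of the 2 groups no shared numbers. Below about 1 CPM, counts were too few to show modest differences.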
